A study of Mus musculus with 9 samples.

Results

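The 10 genes described here mark the endothelium of the blood-brain barrier and of its counterpart in the cord, the blood-spinal cord barrier. They were chosen by symbol from a list of tight junction genes (Cldn5, Ocln, Tjp1), transporter genes (Slc2a1, Mfsd2a, Abcb1a, Bsg) and endothelial identity genes (Pecam1, Cdh5, Flt1). All 10 were found among the 40879 gene symbols of the count table, and 10 of 10 had enough counts to be tested. RNA came from spinal cord of mice with the genotype label WT, and 3′ mRNA sequencing gave 9 libraries in 3 groups of 3. The first group had experimental autoimmune encephalomyelitis (EAE) and received GV1001, a peptide taken from telomerase. The second had EAE and received vehicle, and the third was naive. EAE is an immune attack on myelin that inflames the cord and is widely used to model multiple sclerosis. The labels give no strain, sex, age, dose or disease stage. They also do not say whether replicates are separate animals, so p-values measure the spread between these libraries, which may be partly technical.

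Endothelial cells of brain and cord seal the blood vessel wall with tight junctions made of claudins and occludin, which scaffold proteins of the zonula occludens family tie to the cell's actin. They let few vesicles cross, pump drugs and metabolites back into blood, and carry glucose, lactate, amino acids and lipids across by dedicated transporters. Astrocyte endfeet, pericytes and Wnt ligands maintain this state. In inflammation the same cells can display adhesion molecules that let leukocytes pass.

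Total counts per library ranged from 5247246 to 6174870, and 15351 genes were tested. Levels are given as CPM, a gene's counts divided by all counts of its library and set to a common total, and fold changes also carry a TMM scaling factor for library composition. Endothelium was present in every group: all 30 of 30 other endothelial identity genes had counts in each. Their summed level was 594, 802 and 681 CPM in GV1001 replicates 1 to 3, 834, 656 and 621 CPM in vehicle replicates, and 547, 523 and 558 CPM in naive replicates. Ly6a, Cd93, Fli1 and Cd34 of this list were highest in vehicle replicate 1, at 147, 86.4, 58.2 and 49.4 CPM. Itm2a was lowest there, at 35.9 CPM. How far cells other than endothelium supply this sum, or the score of the list used below, was not tested. Libraries also differed in RNA of other cells. A list of 18 leukocyte and microglia genes summed to 387, 1930 and 657 CPM in GV1001 libraries, 5800, 726 and 2070 CPM in vehicle libraries, and 267 to 318 CPM in naive libraries, where Cd3g alone was at 0. A list of 13 skeletal muscle genes, all detected in every group, summed to 5220, 1460 and 584 CPM in GV1001 libraries, against 96.4 to 612 CPM in vehicle libraries and 120 to 340 CPM in naive libraries. The 10 Schwann cell genes, also all detected, summed to 1700 to 2560 CPM in GV1001 libraries, 313 to 1770 CPM in vehicle libraries and 650 to 1070 CPM in naive libraries. The 6 red blood cell genes summed to 4860 CPM in vehicle replicate 2 and to between 254 and 721 CPM elsewhere. In RNA from whole tissue, fewer cells of a type and less RNA per cell cannot be told apart.

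None of the 10 barrier genes passed the edgeR quasi-likelihood test at an adjusted p of 0.05 in any of the 3 comparisons. This was also true of nearly every other gene: 0.0195% of genes tested passed in vehicle against naive, 0% in GV1001 against vehicle and 0% in GV1001 against naive. At an unadjusted p under 0.05 the barrier genes counted 1 of 10 in vehicle against naive, where 19.3% of all genes did, 0 of 10 in GV1001 against vehicle, against 9.08%, and 2 of 10 in GV1001 against naive, against 7.3%. DESeq2 called 1 of 10, Slc2a1, in vehicle against naive, where it called 6.41% of genes. It called 0 of 10 in the other comparisons, where it called 0.0856% and 0.24% of genes. limma-voom called 0 of 10 in all of them. All vehicle libraries were above all naive ones for 2 of 10 genes (Slc2a1 and Bsg), beside 13.6% of all genes, and below them for 0 of 10, beside 9.5%, or 23.1% in either direction. All GV1001 libraries were above all vehicle libraries for 1 of 10 (Abcb1a), beside 5.44%, and below for 0 of 10, beside 5.03%, or 10.5% in either direction. They were above all naive libraries for 3 of 10 (Slc2a1, Bsg and Ocln), beside 10.2%, and below for 0 of 10, beside 6.7%, or 16.9% in either direction. The median log2 fold change of the 10 genes was 0.06 in vehicle against naive, 0.14 in GV1001 against vehicle and 0.21 in GV1001 against naive, beside −0.01, −0.01 and 0.00 over all genes tested. Fold changes were above 0 for 6, 7 and 9 of the 10 genes in these comparisons, beside 49.5%, 48.6% and 50.5% of all genes. The comparisons share libraries, so these values are not independent of each other.

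**Figure D1:**
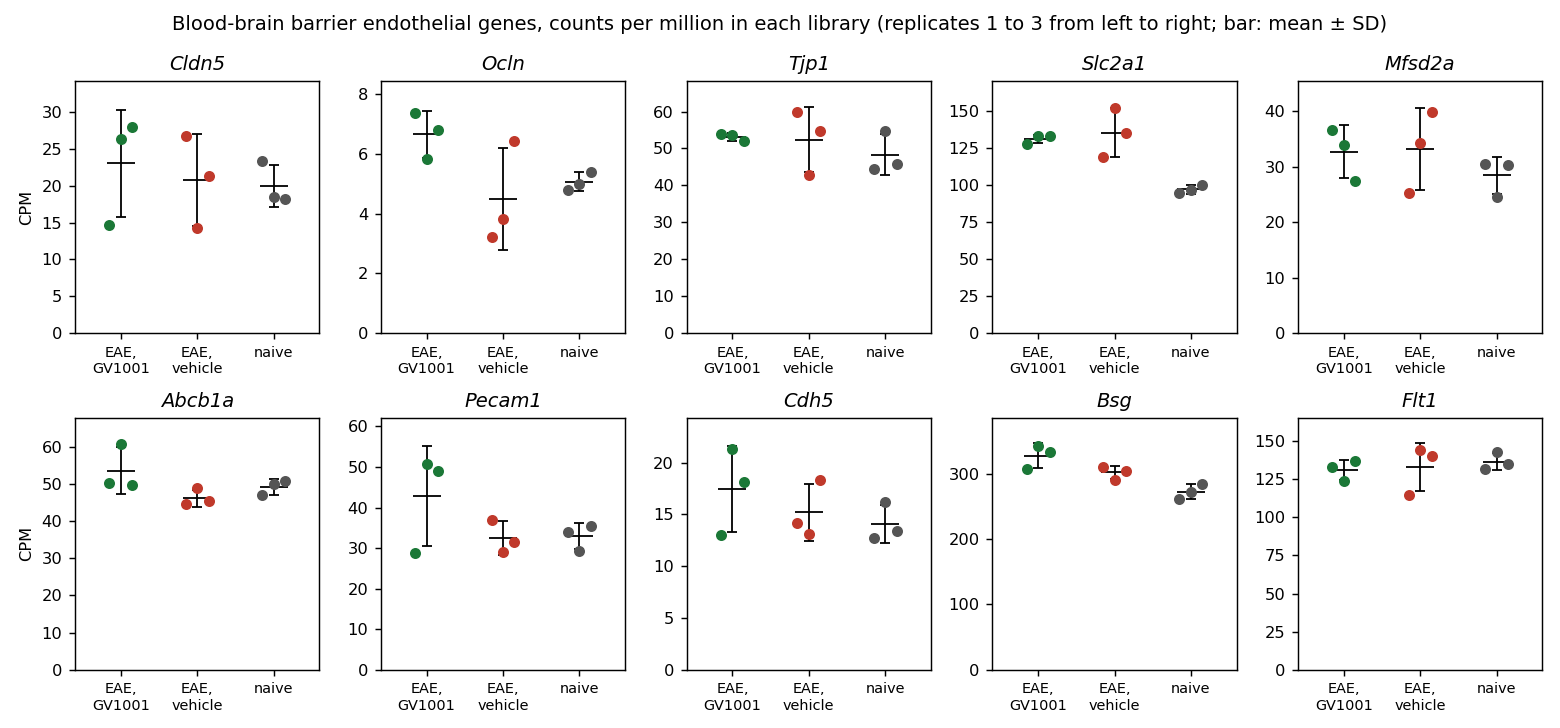
Level of each barrier gene in CPM (vertical axis, from 0) in the 9 libraries by group, with the mean and SD as a bar. Slc2a1 lies between 119 and 152 CPM in the 6 EAE libraries, above the 94.4 to 100 CPM of naive libraries, while the groups overlap for most other genes.

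Slc2a1 encodes GLUT1, the carrier that brings glucose across the barrier, and it is also made by astrocytes. Its level was 128, 133 and 133 CPM in GV1001 libraries, 119, 152 and 135 CPM in vehicle libraries, and 94.4, 97.0 and 100 CPM in naive libraries. Every EAE library was above every naive library, and the GV1001 libraries lay inside the range of the vehicle libraries. The means were 131 ± 3.29 CPM with GV1001, 135 ± 16.9 CPM with vehicle and 97.1 ± 2.76 CPM in naive cord (SD, n = 3 each). In vehicle against naive the log2 fold change was 0.44 ± 0.10 (SE; 95% interval 0.23 to 0.66), a fold of 1.36, and it had the smallest p of the 10 genes. The edgeR adjusted p was 0.0703 and missed the threshold, as did limma-voom at 0.109, while DESeq2 gave 0.00537. Over all alternatives run, the log2 fold change stayed between 0.36 and 0.51 and the adjusted p ranged from 0.00438 to 0.258. Vehicle replicate 2, which had the highest Slc2a1 level, also had the highest red blood cell level, and their relation was not tested. Without that library the log2 fold change was 0.36 and passed in edgeR (adjusted p = 0.0378), in a fit that called 10.4% of all genes. It also passed with skeletal muscle and Schwann cell scores as covariates (0.42, adjusted p = 0.0302), where 7.32% of all genes did.

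GV1001 against naive gave a similar value for Slc2a1, a log2 fold change of 0.41 ± 0.10 (SE; 95% interval 0.19 to 0.63) with an edgeR adjusted p of 0.593. DESeq2 gave an adjusted p of 0.110. With the muscle and Schwann scores as covariates the log2 fold change was 0.15. Relative to naive cord, the mean muscle score was 3.75 with GV1001 and 0.65 with vehicle. The mean Schwann score was 0.92 with GV1001 and −0.01 with vehicle. Both scores largely follow GV1001, so fits with them, here and below, separate group and scores poorly. Between GV1001 and vehicle the log2 fold change of Slc2a1 was −0.04 ± 0.10 (SE; 95% interval −0.25 to 0.18), and the interval of the fold was 0.84 to 1.13. Both comparisons with naive cord use the same 3 naive libraries.

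Slc2a1 and Flt1 are known targets of hypoxia-inducible factors, which bind a short core in DNA, so their promoter windows are shown with that of Cldn5 for contrast. The windows are the 250 bases before the gene start, from RefSeq on GRCm38.p6, an earlier build than that of the counts. Slc2a1 is at chr4:119108495-119108744 on the plus strand, Cldn5 at chr16:18776597-18776846 on the plus strand and Flt1 at chr5:147726012-147726261 on the minus strand, each printed 5′ to 3′ along its gene. Capitals mark the hypoxia response core, ACGTG or GCGTG on either strand.
Slc2a1: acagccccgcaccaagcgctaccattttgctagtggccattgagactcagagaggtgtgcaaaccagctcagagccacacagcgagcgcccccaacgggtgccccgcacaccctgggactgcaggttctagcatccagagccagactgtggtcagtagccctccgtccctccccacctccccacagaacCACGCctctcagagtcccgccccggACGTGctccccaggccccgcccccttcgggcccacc
Cldn5: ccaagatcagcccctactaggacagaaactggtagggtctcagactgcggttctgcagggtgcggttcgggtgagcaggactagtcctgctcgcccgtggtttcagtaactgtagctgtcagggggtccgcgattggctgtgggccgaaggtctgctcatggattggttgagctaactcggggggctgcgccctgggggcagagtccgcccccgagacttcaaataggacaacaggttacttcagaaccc
Flt1: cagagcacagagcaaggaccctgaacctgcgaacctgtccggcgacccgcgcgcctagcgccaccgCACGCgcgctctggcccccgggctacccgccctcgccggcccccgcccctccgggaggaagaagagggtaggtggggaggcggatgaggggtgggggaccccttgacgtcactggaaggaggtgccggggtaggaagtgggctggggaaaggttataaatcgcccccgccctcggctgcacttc
Slc2a1 holds 2 such cores, Flt1 holds 1 and Cldn5 holds 0. Among the windows not shown, Mfsd2a holds 4, each Ocln window holds 1, and Abcb1a and Tjp1 hold 0. Of the 10 genes, 7 had an entry, with 8 windows because Ocln has 2 starts, and the core occurred in 5 of 8 windows, beside 38.6% of the 32851 windows of all genes. A GC box (GGGCGG, either strand) occurred in 6 of 8, beside 32.7%. The core of ETS factors, which guide endothelial identity (GGAA, either strand), occurred in 6 of 8, beside 93.4%. The TCF and LEF core of Wnt signalling (CTTTGA, either strand) occurred in 2 of 8, beside 13.8%. None of these motifs contains another. A match is a run of letters, and no measurement of binding is among these data.

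Mfsd2a carries lysophospholipids with omega-3 fatty acids into nervous tissue and holds back vesicle transport in barrier endothelium. It had 36.7, 34.0 and 27.5 CPM in GV1001 libraries, 25.3, 34.3 and 39.9 CPM in vehicle libraries, and 30.5, 24.5 and 30.3 CPM in naive libraries. The groups overlapped, and the vehicle libraries spanned both other groups except naive replicate 2. In GV1001 against vehicle Mfsd2a had a log2 fold change of −0.02 ± 0.18 (SE; 95% interval −0.41 to 0.38). In vehicle against naive it was 0.19 ± 0.18 (SE; 95% interval −0.21 to 0.58).

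Abcb1a encodes P-glycoprotein, the efflux pump that returns many drugs from endothelium to blood. Its level was 50.3, 60.8 and 49.6 CPM in GV1001 libraries, 44.5, 48.8 and 45.3 CPM in vehicle libraries, and 46.9, 49.9 and 50.9 CPM in naive libraries. All GV1001 libraries were above all vehicle libraries by a small margin, and both overlapped the naive libraries. The log2 fold change was 0.22 ± 0.12 (SE; 95% interval −0.04 to 0.47, edgeR adjusted p = 0.595), and it was −0.12 ± 0.12 in vehicle against naive. Abcb1b, its closely related sister gene in mice, had 5.67, 7.05 and 4.37 CPM in GV1001 libraries, 12.4, 4.19 and 10.1 CPM in vehicle libraries, and 6.06, 5.87 and 6.68 CPM in naive libraries. Vehicle replicates 1 and 3 stood above the other libraries for Abcb1b, with counting intervals of 9.64 to 15.7 and 7.68 to 13.1 CPM (95%, Poisson). For Abcb1b it was −0.66 ± 0.37 in GV1001 against vehicle and 0.50 ± 0.36 in vehicle against naive, neither past the test. How reads that fit both copies were assigned is not given in the sources used here, so the split between them is uncertain.

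Bsg encodes basigin, which escorts lactate transporters to the membrane and is abundant in barrier endothelium as well as in other cells of the cord. It had 307, 343 and 334 CPM in GV1001 libraries, 311, 291 and 305 CPM in vehicle libraries, and 261, 273 and 284 CPM in naive libraries. As for Slc2a1, each of the 6 EAE libraries was above each naive library. These were 2 of 10 barrier genes, beside 5.25% of all genes tested; 0 of 10 had all EAE libraries below naive, beside 2.78%. Bsg gave a log2 fold change of 0.24 ± 0.09 in GV1001 against naive (SE; 95% interval 0.04 to 0.44, edgeR adjusted p = 0.654). It was 0.12 ± 0.09 in GV1001 against vehicle and 0.12 ± 0.09 in vehicle against naive.

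**Figure D2:**
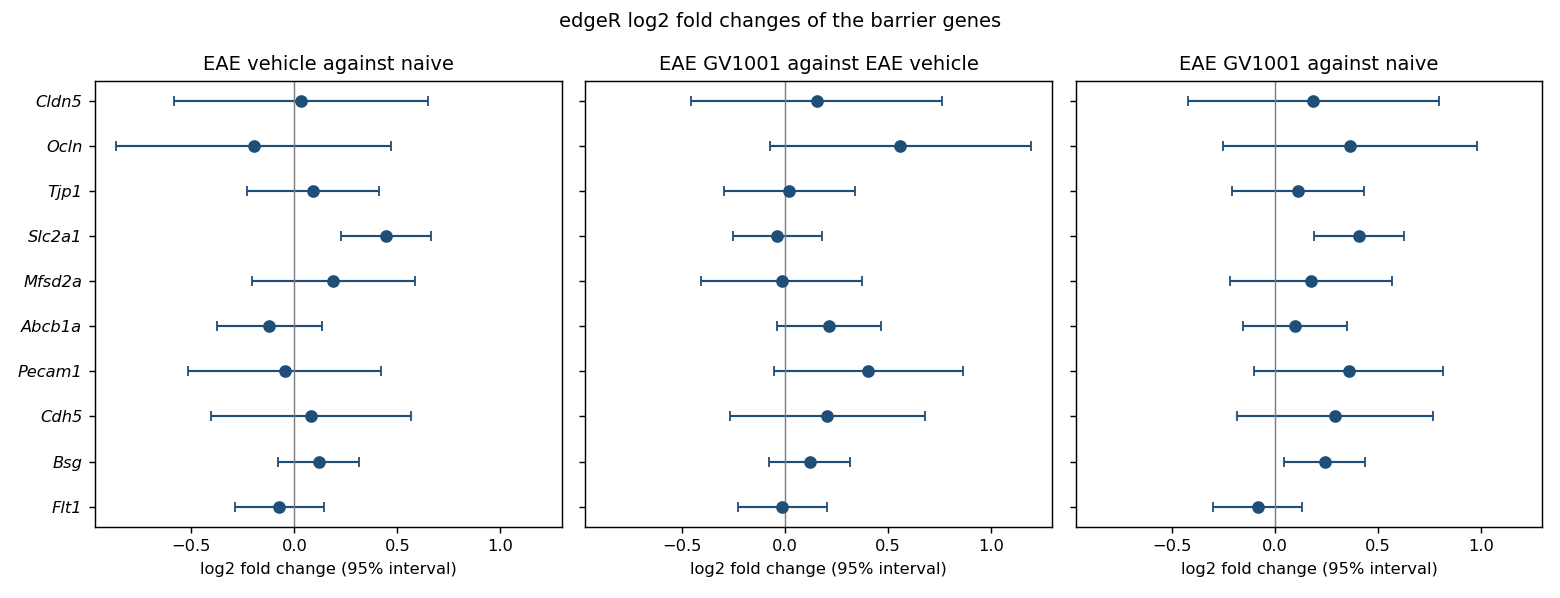
The edgeR log2 fold change of each barrier gene (point) with its 95% interval (line) in the 3 comparisons. The interval of Slc2a1 leaves out 0 in both comparisons with naive cord and that of Bsg in GV1001 against naive; these intervals are per gene and not adjusted, and 0 of 10 genes passed after adjustment.

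Cldn5 encodes claudin-5, the main sealing claudin of barrier endothelium. It was at 14.7, 26.4 and 28.0 CPM in GV1001 libraries, 26.8, 14.3 and 21.3 CPM in vehicle libraries, and 23.3, 18.5 and 18.2 CPM in naive libraries. The lowest values of all 9 libraries were vehicle replicate 2 and GV1001 replicate 1, and the highest also came from the EAE groups, so that both EAE groups spanned the naive values. The log2 fold change was 0.15 ± 0.28 in GV1001 against vehicle (SE; 95% interval −0.45 to 0.76) and 0.03 ± 0.28 in vehicle against naive (SE; 95% interval −0.59 to 0.65). In folds the second interval runs from 0.666 to 1.57, so these data do not separate a loss or gain of Cldn5 RNA within that range from no change. With the score of the other endothelial identity genes as a covariate it was −0.47 in vehicle against naive, and with muscle and Schwann scores it was 1.21 in GV1001 against vehicle. Neither passed (edgeR adjusted p = 0.403 and 0.526). The direction for Cldn5 changed with the endothelial covariate in vehicle against naive, while in GV1001 against vehicle the muscle and Schwann covariates changed only the size. Relative to the naive mean, the endothelial score was 0.08, 0.55 and 0.34 in GV1001 replicates and 0.48, 0.17 and 0.14 in vehicle replicates. Every EAE library was above every naive library, at 0, −0.04 and 0.04. Fits with this score, here and below, therefore separate EAE and score poorly in comparisons with naive cord.

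Ocln encodes occludin, a membrane protein of tight junctions, and gave the fewest reads of the 10 genes. It had 39, 33 and 42 counts in GV1001 libraries, 18, 20 and 37 counts in vehicle libraries, and 27, 29 and 30 counts in naive libraries. These are 7.37, 5.82 and 6.80 CPM with GV1001, 3.23, 3.81 and 6.45 CPM with vehicle, and 4.81, 5.01 and 5.41 CPM in naive cord. The GV1001 libraries were above the naive libraries, and vehicle replicates 1 and 2 were the lowest of all 9. Counting error alone is wide at this depth: the Poisson 95% interval was 1.92 to 5.11 CPM in vehicle replicate 1 and 5.24 to 10.1 CPM in GV1001 replicate 1. The log2 fold change of 0.56 ± 0.29 in GV1001 against vehicle (SE; 95% interval −0.07 to 1.19) was the largest of the 10 genes in that comparison, with an edgeR adjusted p of 0.584. In vehicle against naive it was −0.20 ± 0.30 (SE; 95% interval −0.87 to 0.47). Without vehicle replicate 3 these values were 0.90 and −0.54, and neither passed (adjusted p = 0.597 and 0.431). Adjusting for the muscle and Schwann scores gave Ocln 0.21 in GV1001 against vehicle (edgeR adjusted p = 0.919). This was below Cldn5, Pecam1, Cdh5 and Tjp1 in that fit, where GV1001 and the scores are hard to separate.

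Tjp1 encodes ZO-1, the scaffold that links claudins and occludin to actin, and it is made by many cell types. It was at 54.0, 53.6 and 52.0 CPM in GV1001 libraries, 59.8, 42.7 and 54.6 CPM in vehicle libraries, and 44.4, 54.7 and 45.8 CPM in naive libraries. The GV1001 libraries were tightly grouped, inside the range of each other group. Tjp1 had a log2 fold change of 0.02 ± 0.15 in GV1001 against vehicle (SE; 95% interval −0.30 to 0.34) and 0.09 ± 0.15 in vehicle against naive.

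Pecam1 encodes CD31, an adhesion molecule of endothelial contacts that platelets and leukocytes also carry. Its level was 28.7, 50.8 and 49.1 CPM in GV1001 libraries, 37.0, 29.0 and 31.4 CPM in vehicle libraries, and 34.0, 29.3 and 35.4 CPM in naive libraries. GV1001 replicates 2 and 3 were the highest of the 9 libraries and GV1001 replicate 1 the lowest. Pecam1 gave a log2 fold change of 0.40 ± 0.21 in GV1001 against vehicle (SE; 95% interval −0.06 to 0.86, edgeR adjusted p = 0.585). Without GV1001 replicate 1 it was 0.62 (adjusted p = 0.351), and adjusting for the muscle and Schwann scores gave 0.81 (adjusted p = 0.572). In vehicle against naive Pecam1 was −0.05 ± 0.21, and −0.46 with the score of the other endothelial identity genes as a covariate (edgeR adjusted p = 0.210). The 8 platelet genes summed to 22.1 to 26.9 CPM in GV1001 libraries, 20.0 to 21.4 CPM in vehicle libraries and 18.0 to 28.0 CPM in naive libraries, with Gp6 at 0 in vehicle and Gp6 and Clec1b at 0 in naive cord. The leukocyte list was highest in vehicle replicate 1, where Pecam1 was 37.0 CPM. The part of these cells in the Pecam1 values was not tested.

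Cdh5 encodes VE-cadherin, the adherens junction protein that defines endothelium. It had 13.0, 21.3 and 18.1 CPM in GV1001 libraries, 14.2, 13.1 and 18.3 CPM in vehicle libraries, and 12.7, 16.2 and 13.4 CPM in naive libraries. The groups overlapped, with a log2 fold change of 0.21 ± 0.21 in GV1001 against vehicle (SE; 95% interval −0.27 to 0.68) and 0.08 ± 0.22 in vehicle against naive.

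Flt1 encodes VEGF receptor 1, which binds VEGF tightly and, in a secreted form, withholds it from the main signalling receptor Kdr. It was at 133, 124 and 137 CPM in GV1001 libraries, 115, 144 and 140 CPM in vehicle libraries, and 132, 143 and 135 CPM in naive libraries. The groups overlapped, and the narrow spread gave some of the tightest intervals of the 10 genes. Flt1 gave a log2 fold change of −0.01 ± 0.10 in GV1001 against vehicle (SE; 95% interval −0.23 to 0.20) and −0.07 ± 0.10 in vehicle against naive (SE; 95% interval −0.29 to 0.14). Secreted and membrane forms of Flt1 end at different sites and were not separated in the table. Kdr itself had 32.9, 45.7 and 50.9 CPM in GV1001 libraries, 35.7, 35.3 and 35.0 CPM in vehicle libraries, and 42.9, 38.0 and 42.9 CPM in naive libraries. The vehicle libraries were all below the naive ones for Kdr, with a log2 fold change of −0.25 ± 0.16 and an edgeR adjusted p of 0.423. Tek, the angiopoietin receptor TIE2, was at 6.11 ± 1.45 CPM with GV1001, 5.48 ± 0.459 CPM with vehicle and 6.51 ± 1.57 CPM in naive cord (SD, n = 3 each).

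Within the GV1001 group, Cldn5, Pecam1 and Cdh5 were low and high in the same libraries. GV1001 replicate 1 was below the naive mean for Cldn5 (−0.45 on the log2 scale), Pecam1 (−0.21) and Cdh5 (−0.12). GV1001 replicates 2 and 3 were above it for each, by 0.37 and 0.46 for Cldn5, 0.59 and 0.55 for Pecam1, and 0.56 and 0.34 for Cdh5. The same library had the lowest level of the other endothelial identity genes in its group and the highest skeletal muscle level, and the part of tissue composition in the pattern was not tested. Vehicle replicate 2 was likewise the lowest of its group for each, at −0.51 for Cldn5, −0.22 for Pecam1 and −0.13 for Cdh5. Otherwise the vehicle and naive groups did not keep to the pattern. Vehicle replicate 3 had 0.31 for Cdh5 but −0.13 for Pecam1. Naive replicate 1 had 0.23 for Cldn5 but −0.14 for Cdh5. Slc2a1 was nearly level within the GV1001 group, at 0.37, 0.42 and 0.43 in GV1001 replicates 1 to 3. Ocln was highest in GV1001 replicate 1, at 0.49. The median SD of log2 CPM over the 10 genes was 0.164 in GV1001, 0.221 in vehicle and 0.12 in naive libraries, below the 0.216, 0.264 and 0.163 over all genes tested. Genes were not matched for level here, and counting error widens the spread of genes with few counts. Cldn5 had the widest spread of the 10 genes in every group, with an SD of 0.50 in GV1001, 0.48 in vehicle and 0.20 in naive libraries.

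**Figure D3:**
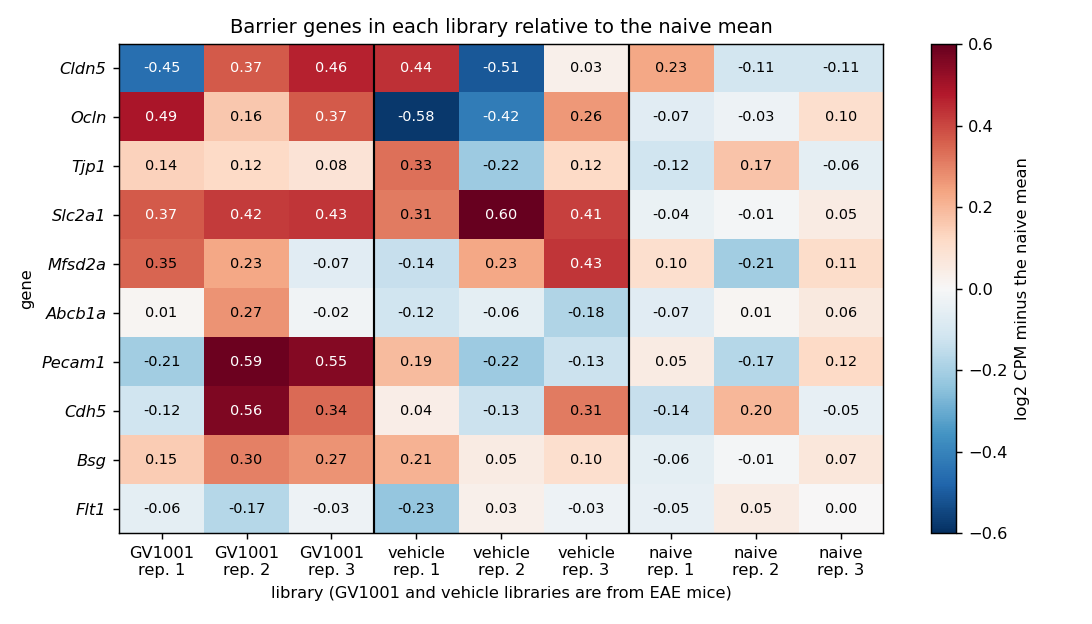
Each barrier gene (rows) in each library (columns) as log2 CPM minus its naive mean, with GV1001, vehicle and naive libraries from left to right. Slc2a1 is above 0.3 in all 6 EAE libraries, while Cldn5 runs from −0.51 to 0.46 among them.

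Other genes of the barrier were read from lists by role, and 0 passed in the junction, transporter, identity, Wnt, VEGF or caveolae lists in any comparison. Over all genes tested, the shares at an unadjusted p under 0.05 were 11.3% higher and 8.07% lower in vehicle against naive, 4.57% and 4.51% in GV1001 against vehicle, and 4.35% and 2.95% in GV1001 against naive. Of 17 tested genes of other junction proteins, 6 were higher and 1 lower at an unadjusted p under 0.05 in vehicle against naive, with a median log2 fold change of 0.23. The smallest p was that of Ctnnb1, beta-catenin, which joins cadherins to the cytoskeleton and carries Wnt signals. It was at 433 ± 4.73 CPM with GV1001, 497 ± 4.84 CPM with vehicle and 403 ± 17.6 CPM in naive cord (SD, n = 3 each), and was 0.27 ± 0.08 on the log2 scale in vehicle against naive (edgeR adjusted p = 0.105). In GV1001 against vehicle the junction median was −0.12, with 1 higher and 1 lower. Jup, plakoglobin, had the smallest p, with 35.1, 37.4 and 27.4 CPM in GV1001 libraries against 22.4, 26.5 and 26.1 CPM in vehicle libraries. This gave 0.41 ± 0.15 on the log2 scale (edgeR adjusted p = 0.528), and in vehicle against naive it was −0.45 ± 0.15 (adjusted p = 0.133). In GV1001 against naive the smallest p was that of Pard3, a polarity scaffold, at −0.32 ± 0.13 (adjusted p = 0.658).

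Of 22 other transporters and receptors, 4 were higher and 2 lower at an unadjusted p under 0.05 in vehicle against naive, and the median was 0.03. Slco2b1, an organic anion carrier that microglia and macrophages also express, was at 29.8 ± 14.5 CPM with GV1001, 43.4 ± 14.3 CPM with vehicle and 13.7 ± 4.68 CPM in naive cord (SD, n = 3 each). Its log2 fold change in vehicle against naive was 1.64 ± 0.38 (edgeR adjusted p = 0.0718). Slco1c1, the thyroxine carrier of barrier endothelium and astrocytes, had 21.3, 22.9 and 25.1 CPM in GV1001 libraries, 17.1, 17.5 and 19.9 CPM in vehicle libraries, and 27.1, 26.4 and 25.3 CPM in naive libraries. Its 3 groups did not overlap, with vehicle lowest and naive highest. The log2 fold change was 0.35 ± 0.14 in GV1001 against vehicle (edgeR adjusted p = 0.530) and −0.56 ± 0.14 in vehicle against naive (adjusted p = 0.0732). Slc38a5, a glutamine carrier, had the smallest p in GV1001 against naive, with 9.82, 13.2 and 14.3 CPM against 4.81, 5.18 and 3.97 CPM, a log2 fold change of 1.39 ± 0.33 (edgeR adjusted p = 0.593).

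The 28 tested genes of endothelial identity other than Pecam1 and Cdh5 had a median log2 fold change of 0.26 in vehicle against naive, with 5 higher and 0 lower at an unadjusted p under 0.05. Without vehicle replicate 1 the median was 0.17, with 4 higher. In GV1001 against vehicle the median was 0.11, and in GV1001 against naive it was 0.31, with 26 of 28 above 0 and 5 higher at that p. Fli1, an ETS factor that blood cells also express, was at 19.8 ± 1.05 CPM with GV1001, 35.9 ± 19.9 CPM with vehicle and 14.8 ± 1.92 CPM in naive cord (SD, n = 3 each). Its highest value, 58.2 CPM, was in vehicle replicate 1, the library with the highest leukocyte level. Ly6c1, a surface protein of brain and cord endothelium, had 61.0, 69.3 and 63.8 CPM in GV1001 libraries, 49.4, 54.3 and 45.8 CPM in vehicle libraries, and 43.1, 34.0 and 44.4 CPM in naive libraries. Those groups did not overlap, and Ly6c1 had the smallest p of its list in both comparisons of GV1001. The log2 fold change was 0.38 ± 0.13 against vehicle (edgeR adjusted p = 0.528) and 0.65 ± 0.13 against naive (adjusted p = 0.459).

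For the 18 Wnt genes the median was 0.08 in vehicle against naive and −0.05 in GV1001 against vehicle, with 1 higher and 1 lower at an unadjusted p under 0.05 in each. Apcdd1, a Wnt inhibitor and target, was at 30.3 ± 3.47 CPM with GV1001, 35.2 ± 5.50 CPM with vehicle and 24.5 ± 2.12 CPM in naive cord (SD, n = 3 each). Znrf3, a ligase that removes Wnt receptors, had 7.56, 6.17 and 7.61 CPM in GV1001 libraries against 13.8, 8.39 and 13.1 CPM in vehicle libraries, a log2 fold change of −0.73 ± 0.25 (edgeR adjusted p = 0.528). Fzd4, the Norrin receptor, was 0.49 ± 0.16 on the log2 scale in GV1001 against naive (edgeR adjusted p = 0.652). For the 21 genes of VEGF, angiopoietin and Notch signalling the median was 0.15 in vehicle against naive and 0.00 in GV1001 against vehicle. Nrp2, a VEGF co-receptor, was at 56.1 ± 2.31 CPM with GV1001, 63.7 ± 4.96 CPM with vehicle and 44.4 ± 3.28 CPM in naive cord (SD, n = 3 each). Its log2 fold change was 0.49 ± 0.12 in vehicle against naive (edgeR adjusted p = 0.0725) and 0.31 ± 0.12 in GV1001 against naive (adjusted p = 0.656). Vegfb, a ligand of Flt1, was at 67.2 ± 0.979 CPM with GV1001 and 55.7 ± 4.38 CPM with vehicle (SD, n = 3 each), a log2 fold change of 0.27 ± 0.11 (edgeR adjusted p = 0.531).

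The list of caveolae, the vesicles that Mfsd2a holds back, and fenestrae gave a median of 0.04 over 6 genes, Plvap included, in vehicle against naive and 0.14 in GV1001 against vehicle. Cavin3, a coat protein, was at 58.2 ± 4.46 CPM with GV1001, 62.1 ± 4.76 CPM with vehicle and 42.1 ± 4.61 CPM in naive cord (SD, n = 3 each). Its log2 fold change of 0.53 ± 0.12 in vehicle against naive had the same edgeR adjusted p as Slc2a1, 0.0703, and it was 0.44 ± 0.12 in GV1001 against naive. Cavin1, which shapes caveolae, was 0.32 ± 0.15 in GV1001 against vehicle (edgeR adjusted p = 0.548). Plvap, found in fenestrated vessels and largely absent from a mature barrier, was at 12.2 ± 3.84 CPM with GV1001, 16.2 ± 2.45 CPM with vehicle and 15.8 ± 4.43 CPM in naive cord (SD, n = 3 each). Over 11 genes of the vascular basement membrane the median was 0.25 in vehicle against naive, 0.13 in GV1001 against vehicle and 0.46 in GV1001 against naive, with 4 higher at an unadjusted p under 0.05 in the last. Col4a2, a collagen of that membrane, was 0.42 ± 0.19 in vehicle against naive (edgeR adjusted p = 0.265). Lamb2, a laminin chain, was 0.58 ± 0.22 in GV1001 against naive (edgeR adjusted p = 0.654).

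Genes of activated endothelium gave larger values than the barrier genes. Of 13 tested, 9 were higher and 0 lower in vehicle against naive at an unadjusted p under 0.05, with a median log2 fold change of 1.31, and 1 passed after adjustment. That gene was Lrg1, a secreted glycoprotein that inflamed vessels make, with 34.0, 70.3 and 47.3 CPM in GV1001 libraries, 54.1, 58.9 and 33.8 CPM in vehicle libraries, and 4.99, 6.91 and 8.12 CPM in naive libraries. All EAE libraries were well above naive ones, and the EAE groups overlapped. Lrg1 rose by 2.84 ± 0.34 on the log2 scale in vehicle against naive (edgeR adjusted p = 0.0258), a fold of 7.17. Lrg1 passed in 15 of 21 alternatives. The call was lost in limma-voom (adjusted p = 0.0869), with the replicate block (0.107), without GV1001 replicate 3 (0.0778) and in each fit that lacked a naive library (0.206 to 0.258 in edgeR). In GV1001 against naive Lrg1 was 2.89 ± 0.34 (edgeR adjusted p = 0.0610; it passed in 13 of 21 alternatives) and in GV1001 against vehicle 0.05 ± 0.27 (95% interval −0.55 to 0.65). Without vehicle replicate 1, 1 gene of the list passed in vehicle against naive, beside 5 of all 15679 genes tested in that fit. Without GV1001 replicate 1, 3 did, beside 81 of all 15819. In GV1001 against naive the median was 0.81, with 9 higher, and 1 gene passed when either of those libraries was left out. Those fits called 3 of all 15679 and 1 of all 15819 genes. In GV1001 against vehicle the median was −0.27, with 1 higher and 1 lower at that p, and it was −0.01 without vehicle replicate 1.

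Icam1, a leukocyte adhesion molecule of endothelium that leukocytes also make, had 3.59, 18.3 and 7.94 CPM in GV1001 libraries, 42.7, 6.29 and 19.2 CPM in vehicle libraries, and 1.60, 2.93 and 2.17 CPM in naive libraries. Its highest and lowest EAE libraries, vehicle replicate 1 and GV1001 replicate 1, were also those of the leukocyte list. Icam1 gave −1.20 ± 0.62 on the log2 scale in GV1001 against vehicle (edgeR adjusted p = 0.588) and 3.32 ± 0.81 in vehicle against naive (adjusted p = 0.0743). Vcam1, the endothelial ligand of leukocyte VLA-4 integrin, was at 51.0 ± 6.99 CPM with GV1001, 66.2 ± 30.2 CPM with vehicle and 31.3 ± 2.06 CPM in naive cord (SD, n = 3 each). Its value in vehicle against naive was 1.06 ± 0.29 (edgeR adjusted p = 0.0885). Ackr1, a chemokine-binding protein of venules and red blood cells, had 95.8, 120 and 109 CPM in GV1001 libraries, 88.5, 95.3 and 83.7 CPM in vehicle libraries, and 68.4, 68.4 and 61.2 CPM in naive libraries. Its 3 groups did not overlap, and the log2 fold change was 0.28 ± 0.11 in GV1001 against vehicle (edgeR adjusted p = 0.531). The leukocyte and microglia list itself had a median of 3.32 in vehicle against naive and −1.62 in GV1001 against vehicle, where 10 of 15 genes were lower at an unadjusted p under 0.05. Without vehicle replicate 1 these medians were 2.28 and −0.50, and 1 gene was lower at that p. Without GV1001 replicate 1 the second median was −1.20, also with 1 lower. How far those cells supply these transcripts was not tested.

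**Figure D4:**
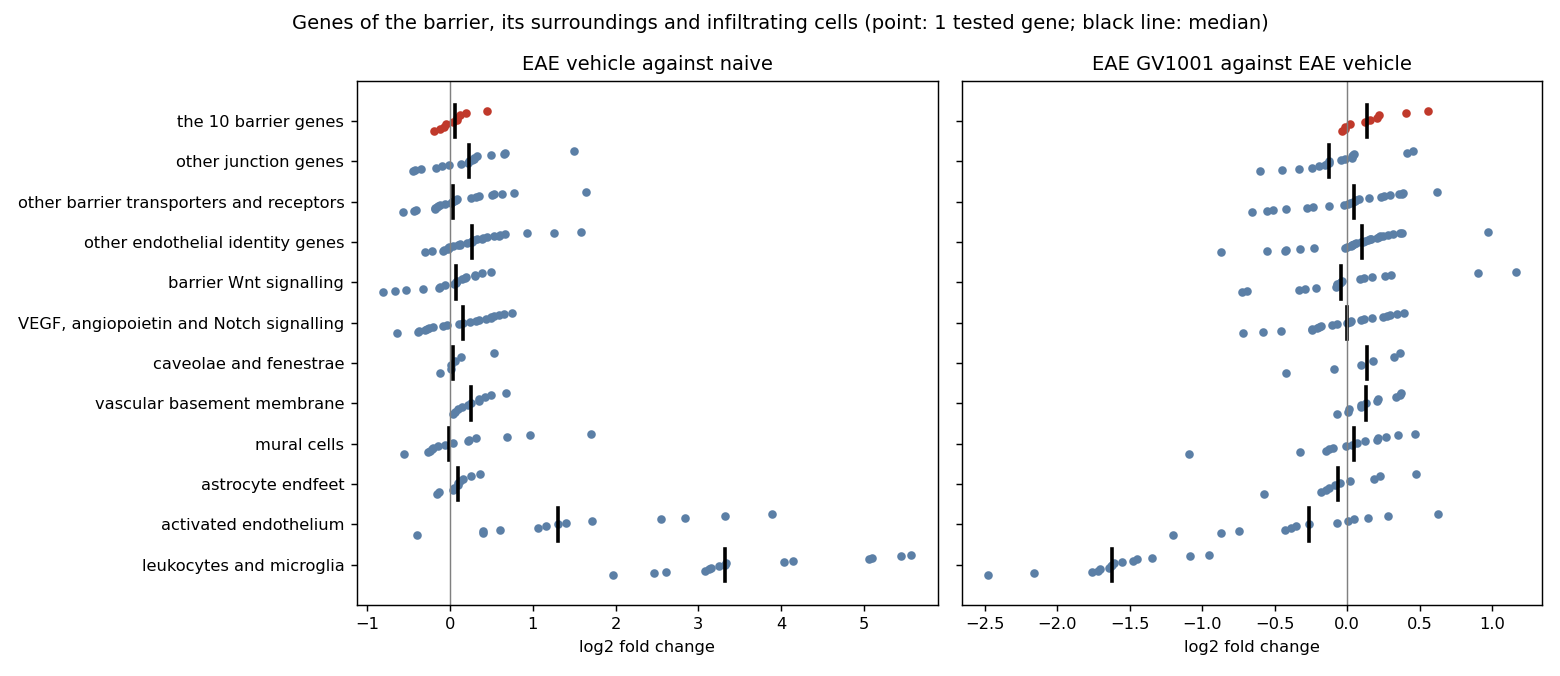
The edgeR log2 fold change of each tested gene (points) by list, with the median as a black line, for vehicle against naive and for GV1001 against vehicle. The 10 barrier genes stay between −0.20 and 0.56, while activated endothelium has a median of 1.31 in vehicle against naive and the leukocyte and microglia list one of 3.32.

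Among the cells that surround the vessel, 0 genes of the mural, endfoot or fibroblast lists passed in any comparison. The 14 mural cell genes had a median of −0.01 in vehicle against naive, with single genes between −0.56 and 1.70, and of 0.05 in GV1001 against vehicle. Pdgfrb, the pericyte receptor for PDGF-B, was at 25.9 ± 5.41 CPM with GV1001, 22.6 ± 7.19 CPM with vehicle and 17.8 ± 1.34 CPM in naive cord (SD, n = 3 each). The 10 genes of astrocyte endfeet had medians of 0.10 and −0.07 in the same comparisons. Aqp4, the water channel of the endfoot, had 297, 370 and 287 CPM in GV1001 libraries, 525, 333 and 565 CPM in vehicle libraries, and 370, 375 and 337 CPM in naive libraries. Vehicle replicates 1 and 3 stood above the other libraries for Aqp4, and the log2 fold change was −0.58 ± 0.18 in GV1001 against vehicle (edgeR adjusted p = 0.528). The 10 genes of perivascular and meningeal fibroblasts had a median of 0.59 in vehicle against naive, 0.21 in GV1001 against vehicle and 0.695 in GV1001 against naive, where all 10 were above 0 and 3 were higher at an unadjusted p under 0.05. Dcn, decorin, a matrix proteoglycan, was 1.32 ± 0.31 in that last comparison (edgeR adjusted p = 0.593), the smallest p of the list.

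The genes most like the barrier genes across libraries were sought by Pearson correlation with the mean of the 10 centred log2 CPM values over the 9 libraries, among 12377 genes of at least 5 CPM. The closest were Lamb2 (r = 0.965, Spearman's rho 0.967), Ddx47 (0.943 and 0.883), Sumf2 (0.923 and 0.900), Cct3 (0.911 and 0.950) and Cdkn1a (0.910 and 0.900). Lamb2 had 52.0, 88.0 and 73.8 CPM in GV1001 libraries, 48.8, 43.8 and 74.3 CPM in vehicle libraries, and 41.9, 47.6 and 50.5 CPM in naive libraries. It was highest in GV1001 replicate 2, where 9 of the 10 barrier genes were above their naive mean, and low in vehicle replicate 2, where 4 of the 10 were. The 9 libraries are similar in depth and differ in the RNA of leukocytes, muscle and red blood cells, and with so many genes searched high values are found by selection.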

How the data were processed

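RNA of spinal cord was extracted with TRIzol or a Maxwell RSC kit and made into QuantSeq 3′ libraries, per the labels' protocols; which sample had which extraction is not given in the sources used here. The authors deposited raw counts, 1 value per gene symbol and library. FastQC, STAR, HTSeq and build GRCm39 are named in the submitters' processing notes, without versions, annotation or strand setting. The 9 files of separate libraries held the same counts as the table of all samples. A 3′ library counts transcript ends, so CPM was not divided by length.

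Groups came from the sample titles. Genes were filtered with filterByExpr (minimum count 10) and scaled by TMM. The test was the quasi-likelihood F test of edgeR 4.0.16 (R 4.3.3), with every library in the fit and a coefficient for each group. P-values were adjusted by Benjamini-Hochberg over the 15351 genes tested, with a threshold of 0.05. Standard errors and 95% intervals of single genes were derived from the F statistic and are not adjusted. Both limma-voom (limma 3.58.1) and DESeq2 1.42.0 served as alternatives. Each procedure was run on simulated data with planted changes larger than any value of the 10 genes, so effects of their size were not covered. Other alternatives changed the quasi-likelihood form, scaling, filter, libraries, replicate block and covariates. A list score is the mean log2 CPM (TMM-scaled, prior count 2) of its tested genes, each first centred on its mean over the libraries. Scores are printed relative to the naive mean. Poisson intervals cover counting error only.

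The 10 genes and all lists were chosen with earlier results of these data known, and no list was tested as a set. Besides the 10 genes, the text names 8 fixed neighbours, the gene with the smallest p of 8 lists in each comparison, and the 5 genes most like the barrier genes. Outside these rules it names Ly6a, Cd93, Cd34, Itm2a and Dcn, and Cd3g, Gp6 and Clec1b where they were not detected. Counts of lists without vehicle replicate 1 (highest leukocyte level) or GV1001 replicate 1 (highest muscle level) were added after seeing the data. Promoter windows were matched by symbol to RefSeq on GRCm38.p6, and 7 of the 10 genes had an entry. Plots used matplotlib 3.10.9 (Python 3.11.15).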

Additional observations from a re-analysis of the deposited data

How the results depend on the processing

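For the 10 barrier genes, 630 alternative values were computed over the 3 comparisons: 593 kept both direction and call, 4 passed where the reported fit did not, all for Slc2a1 in vehicle against naive, and 33 changed sign, none of which passed. Those sign changes touched 17 of 30 gene results. In vehicle against naive, limma-voom gave −0.010 for Cldn5, and the endothelial identity score as a covariate gave −0.469 for Cldn5, 0.071 for Ocln, −0.005 for Tjp1, −0.113 for Cdh5 and 0.032 for Flt1. Leaving out 1 library at a time gave ranges of −0.219 to 0.245 for Cldn5, −0.044 to 0.225 for Tjp1, −0.179 to 0.037 for Pecam1, −0.055 to 0.187 for Cdh5 and −0.124 to 0.001 for Flt1. In GV1001 against vehicle, the endothelial score gave 0.031 for Mfsd2a and 0.015 for Flt1, and leaving out a library gave −0.063 to 0.406 for Cldn5, −0.119 to 0.155 for Tjp1, −0.101 to 0.040 for Slc2a1, −0.160 to 0.117 for Mfsd2a and −0.088 to 0.032 for Flt1. In GV1001 against naive, muscle and Schwann scores gave −0.021 for Ocln, −0.340 for Mfsd2a and −0.004 for Abcb1a, the endothelial score gave −0.436 for Cldn5, −0.026 for Abcb1a, −0.172 for Pecam1 and 0.047 for Flt1, and leaving out a library gave −0.005 to 0.143 for Abcb1a. The cause was not tested.

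The number of barrier genes called in vehicle against naive was 1 (Slc2a1) in DESeq2 with and without the filter and with muscle and Schwann scores, and 0 to 1 when leaving out a library. The number of all genes called there, 3 in the reported fit, was 1104 in DESeq2, 1109 in DESeq2 on filtered genes, 0 in limma-voom, 20 with total counts only, 543 without the filter, 16 with at least 1 CPM in every library, 1123 with muscle and Schwann scores and 236 with the endothelial score. It ranged from 0 to 1652 when leaving out a library, with 1652 without vehicle replicate 2. In GV1001 against vehicle, 0 became 13 in both DESeq2 fits, 3 with muscle and Schwann scores, 514 with the endothelial score, and 0 to 8 when leaving out a library. In GV1001 against naive, 0 became 45 in DESeq2, 39 in DESeq2 on filtered genes, 1 each with the older quasi-likelihood form, total counts only, no filter or the strict filter, 5 with only the 2 groups compared, 246 with muscle and Schwann scores, 4 with the endothelial score, and 0 to 3 when leaving out a library. The labels do not pair replicate numbers across groups. In 2 of 9 pairs of libraries with the same number, deviations from the group means correlated above 0.1, with values from −0.501 to 0.248. With 3 libraries a group, these correlations cannot exclude a pairing or a shared batch. With the replicate block, 0 genes were called in vehicle against naive, and Slc2a1 was 0.441 (adjusted p = 0.168). Depth limits Ocln most, with 18 to 42 counts per library.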
